A study of Mus musculus with 9 samples.

Results

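S100 proteins are small calcium-binding proteins, and 9 of their genes are described here in the dermis of mouse ears: S100a8, S100a9, S100a7a, S100a4, S100a6, S100a10, S100a11, S100a14 and S100a16. They were taken by symbol from a count table of 52550 genes, and the rule used no measured value, although earlier results of these data were known when the genes were chosen. All 9 passed the filter on low counts, which left 22430 genes for testing. The measurements were RNA-seq read counts in 9 libraries, 3 for each of 3 groups of wild-type C57BL/6 mice aged 8 weeks. The VAS+H2O group had vaseline on the ears for 5 days and water by gavage for 10 days. The IMQ+H2O group had imiquimod cream on the ears for 5 days and the same water. Imiquimod is a TLR7 agonist, and its repeated application gives psoriasis-like dermatitis. The IMQ+XYF group had imiquimod cream for 5 days and, for 10 days, gavage with 200 μl of the herbal decoction Xiao-Yin-Fang (XYF) at 23.3 mg/g. Gavage began 5 days before the cream, and every group therefore went through gavage and ear application. The methods name ear sheets of more than 1 mouse as the source of RNA, but not how many mice went into 1 library. The p-values therefore measure the spread between these libraries, which may be partly technical.

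S100a8 and S100a9 pair to form calprotectin, a major protein of the neutrophil cytosol that keratinocytes also make in inflamed epidermis. Released calprotectin binds zinc and manganese and acts as an alarmin through TLR4 and the receptor RAGE, and it is abundant in psoriatic skin. The other S100 proteins mostly work inside cells, where calcium lets them grip partners such as annexins and non-muscle myosin. Most S100 genes lie side by side in 1 stretch of mouse chromosome 3, within the epidermal differentiation complex.

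Total counts ran from 28756305 to 79836881 per library, and the 9 genes together took 0.129% to 0.198% of them. Mitochondrial genes took 8.21% to 14.3%. The label of the tissue was checked against marker lists. The 10 fibroblast markers summed to between 11240 and 26654 CPM (library counts scaled to a common total by TMM), with none at 0 in any library. The 15 keratinocyte markers summed to between 3164 and 19137 CPM, also with none at 0, although keratinocytes are cells of the epidermis and hair follicles. The highest keratinocyte sum was that of IMQ+XYF replicate 1, where it exceeded the fibroblast sum of 11979 CPM. In every other library the fibroblast sum was the higher. In such bulk tissue, fewer cells of a type and less RNA per cell cannot be told apart.

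The S100a8 and S100a9 genes carried the largest change among the 9, so the 250 bases before their RefSeq starts are shown (RefSeq, build GRCm38.p6, 5′ to 3′ on the strand of the gene). Capitals mark matches to TATAAA and to TTNNGNAA, a C/EBP type motif, both searched on both strands. S100a8 is at chr3:90668821-90669070 on the plus strand and S100a9 at chr3:90695722-90695971 on the minus strand.
S100a8: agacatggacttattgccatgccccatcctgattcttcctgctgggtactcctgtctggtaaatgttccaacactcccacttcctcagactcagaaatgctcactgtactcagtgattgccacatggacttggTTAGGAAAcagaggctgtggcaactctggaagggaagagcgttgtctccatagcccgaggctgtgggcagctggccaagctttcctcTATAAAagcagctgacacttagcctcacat
S100a9: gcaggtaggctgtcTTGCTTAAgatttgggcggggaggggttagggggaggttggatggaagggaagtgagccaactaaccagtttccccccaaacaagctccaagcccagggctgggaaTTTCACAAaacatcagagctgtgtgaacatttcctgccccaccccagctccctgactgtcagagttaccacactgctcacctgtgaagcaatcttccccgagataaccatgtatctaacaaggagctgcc

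The S100a8 window held TATAAA from 30 to 25 bases before the start and a C/EBP type match from 117 to 110 bases before it. The S100a9 window held C/EBP type matches from 236 to 229 and from 130 to 123 bases before the start, and no TATAAA. Promoters were matched for 7 of the 9 genes, 8 promoters in all. TATAAA was in those of S100a4 and S100a8, against 12.4% of 32851 promoters. The C/EBP type motif was in those of S100a8 and S100a9 among the 8, against 36.8% of all. An AP-1 motif (TGANTCA) was in that of S100a11 and in the S100a16 promoter at chr3:90540896-90541145, against 6.75%. The other S100a16 promoter did not hold it. A STAT motif (TTCNNNGAA) was in that of S100a7a, against 7.02%. No promoter of the 8 held the NF-kB motif searched, against 7.25% of all. The matches are descriptions of letters, not sites.

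Imiquimod was examined by setting IMQ+H2O against VAS+H2O. S100a8 and S100a9 rose, by 37.3-fold and 36.8-fold, and none of the other 7 genes passed the test in either direction. A gene was called where its adjusted p (edgeR quasi-likelihood test, Benjamini-Hochberg over all genes tested) was 0.05 or lower and its log2 fold change was at least 1 in size. That held for 2 of the 9 genes, against 0.994% of all genes tested. DESeq2's Wald test called the same 2, against 3.88% of genes. There was no overlap between the 2 groups' libraries for 5 of the 9, 3 higher and 2 lower in IMQ+H2O, against 31.5% of all genes. At an unadjusted p under 0.05 edgeR had 5 of the 9, against 20.9% of all genes. The median log2 fold change of the 9 was 0.33, beside −0.023 over all genes.

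S100a8 (ENSMUSG00000056054) lies on chromosome 3 from 90668978 to 90670035 (GENCODE vM21, GRCm38, plus strand). Its levels were 1.16, 6.00 and 3.07 CPM in VAS+H2O replicates 1, 2 and 3, and 68.0, 83.7 and 227 CPM in IMQ+H2O. Every IMQ+H2O library stood above every VAS+H2O library, and IMQ+H2O replicate 3 stood far above the other two of its group. The means were 3.41 ± 2.44 and 126 ± 87.9 CPM (SD, n = 3). This is a log2 fold change of 5.22 (SE 0.76) with a 95% interval of 3.49 to 6.95 (edgeR adjusted p 0.0247).

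S100a9 (ENSMUSG00000056071), from 90692632 to 90695721 on the minus strand of chromosome 3, followed S100a8 closely. Its levels were 1.41, 7.89 and 4.47 CPM in VAS+H2O and 96.6, 107 and 301 CPM in IMQ+H2O, in the order of replicates. The order of the libraries was the same as for S100a8, and the groups did not overlap. The means were 4.59 ± 3.24 and 168 ± 115 CPM (SD, n = 3). This is a log2 fold change of 5.20 (SE 0.76) with a 95% interval of 3.47 to 6.94 (edgeR adjusted p 0.0247).

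The calls of S100a8 and S100a9 were lost in some fits that left out 1 library. Neither was called when VAS+H2O replicate 1, 2 or 3 or IMQ+H2O replicate 2 or 3 was left out. Over all genes edgeR called 90, 35, 28, 28 and 25 in those fits, in that order, beside 223 with all libraries. Over all 9 fits that each left out 1 library, edgeR adjusted p-values reached 0.100. Log2 fold changes stayed between 4.50 and 5.86.

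**Figure D1:**
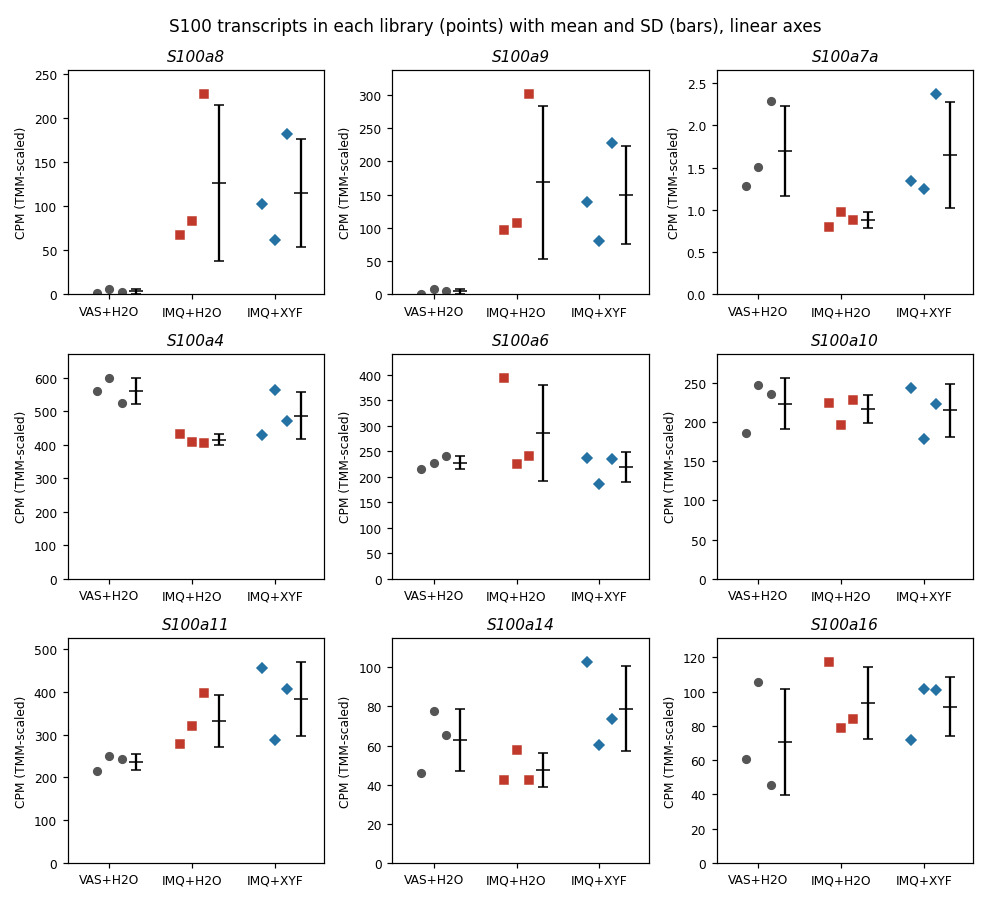
Level of each of the 9 genes in CPM (TMM-scaled, linear axes from 0) in every library, by group. Points are libraries in the order of replicates 1 to 3, and the bar beside them is the mean with its SD. S100a8 and S100a9 stay under 8 CPM in VAS+H2O and lie above 61 CPM in every library of the other groups, whereas the points of S100a10 overlap in all 3 groups.

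Relative to each other, both subunits kept close proportions. S100a8 had between 68.6 and 82.8 counts for every 100 counts of S100a9 across the 9 libraries, in the controls as in both imiquimod groups. Together they took 0.20% to 0.91% of the counts of the 9 genes in VAS+H2O, 9.95% to 27.4% in IMQ+H2O and 9.37% to 21.3% in IMQ+XYF. The log2 CPM of both genes gave a Pearson r of 0.9995 over the 9 libraries. After the group means were taken away, r was 0.995. These are descriptions over libraries that share their depth and group.

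**Figure D2:**
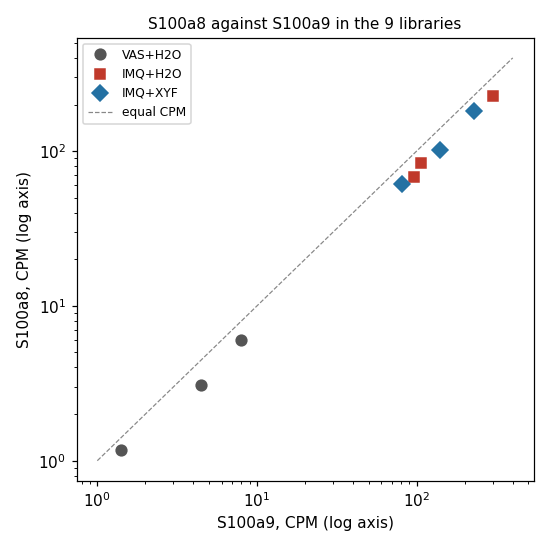
S100a8 against S100a9 in CPM, both on log axes, 1 point per library. The 3 VAS+H2O libraries lie apart at the lower left, IMQ+H2O and IMQ+XYF libraries are mixed at the upper right, and all 9 points lie just under the dashed line of equal CPM.

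The genes most like them over the 9 libraries, among 13684 genes with a mean of at least 100 counts, were Cd300lf and Il19 for S100a8, with r of 0.996 and 0.989. For S100a9 they were Cd300lf and Trem1, with r of 0.994 and 0.987. Cd300lf and Trem1 encode receptors of myeloid cells, and Il19 a cytokine of the IL-10 family. Cd300lf measured 0.309 ± 0.197 CPM in VAS+H2O, 8.64 ± 6.54 in IMQ+H2O and 6.52 ± 3.20 in IMQ+XYF (SD, n = 3). The libraries fall into separate groups, so most of such an r comes from the step between VAS+H2O and the others.

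Markers of neutrophils stood beside this change. Of the 15 listed, 13 were tested, and by sign 12 were higher with imiquimod and 1 lower, with a median log2 fold change of 3.08. Of these 13, edgeR called 5 higher and 0 lower, against 0.994% of all genes. DESeq2 called 9 higher, against 3.88% of genes. The list summed to 158 to 235 CPM in VAS+H2O, 311 to 600 in IMQ+H2O and 156 to 410 in IMQ+XYF. Il1r2 and Hdc, which other cells also express, held 65.3% and 26.7% of the sum in VAS+H2O. These 2 genes held 48.5% and 21.7% of the sum in IMQ+H2O and 47.0% and 22.6% in IMQ+XYF. Up to 6 of the 15 were at 0 in a VAS+H2O library.

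Csf3r, the receptor for the granulocyte growth factor G-CSF, measured 2.43, 4.22 and 3.54 CPM in VAS+H2O and 21.7, 33.4 and 62.7 in IMQ+H2O. It rose by 3.53 on the log2 scale (SE 0.48, edgeR adjusted p 0.0213). In IMQ+XYF it was 25.2, 14.6 and 36.9 CPM. Within each group its lowest and highest libraries were those of S100a8 and S100a9.

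Ly6g, the surface antigen that defines mouse neutrophils, had 0 counts in each VAS+H2O library. It had 3, 4 and 32 counts in IMQ+H2O and 14, 0 and 29 in IMQ+XYF, and it did not pass the filter. The chemokine receptor Cxcr2 measured 1.58 ± 1.18 and 12.6 ± 6.86 CPM in VAS+H2O and IMQ+H2O (SD, n = 3, edgeR adjusted p 0.0787, DESeq2 adjusted p 0.000236 and called). Among 12 monocyte and macrophage markers 0 were called by edgeR, and by sign 9 were higher and 3 lower. At an unadjusted p under 0.05 edgeR had 5 higher and 0 lower, against 20.9% of all genes in either direction. DESeq2 called 3 higher, against 3.88% of genes. Adgre1, which encodes F4/80, measured 17.7 ± 4.66 and 42.3 ± 12.0 CPM (SD, n = 3, edgeR adjusted p 0.0582, DESeq2 adjusted p 0.000575 and called). Csf1r, also on that list, measured 70.5, 131 and 85.6 CPM in VAS+H2O and 54.0, 99.0 and 73.3 in IMQ+H2O. The part of these cells in the S100a8 and S100a9 levels was not tested.

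**Figure D3:**
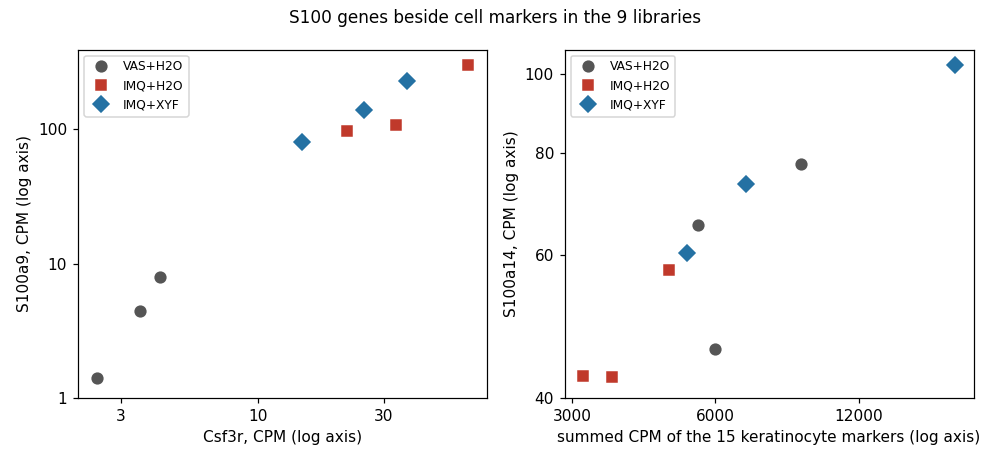
Left, S100a9 against Csf3r in CPM, and right, S100a14 in CPM against the summed CPM of the 15 keratinocyte markers, all on log axes with 1 point per library. On the left the 3 VAS+H2O libraries lie apart from the other 6. On the right IMQ+XYF replicate 1 is the highest library on both axes and IMQ+H2O replicates 1 and 3 are the lowest.

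S100a7a (ENSMUSG00000063767, chromosome 3 from 90654017 to 90658669, plus strand), the mouse relative of the human psoriasis proteins psoriasin and koebnerisin, was the rarest of the 9. Its levels were 1.29, 1.50 and 2.29 CPM in VAS+H2O, 0.792, 0.970 and 0.878 in IMQ+H2O and 1.34, 1.24 and 2.37 in IMQ+XYF. The IMQ+H2O libraries lay below all others, from 23 to 45 counts each. The log2 fold change by imiquimod was −0.95 with a 95% interval of −1.72 to −0.18 (edgeR unadjusted p 0.0216, adjusted p 0.169), and the gene was not called. Of its transcripts' 50-base stretches, 6.44% also occur in transcripts of other genes.

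S100a4 (ENSMUSG00000001020, from 90603771 to 90606045, plus strand), a protein of fibroblasts and leukocytes that binds non-muscle myosin, measured 560, 600 and 525 CPM in VAS+H2O and 434, 408 and 406 CPM in IMQ+H2O. All IMQ+H2O libraries lay below all VAS+H2O libraries, with a log2 fold change of −0.43 (SE 0.12). The edgeR unadjusted p was 0.0062 and the adjusted p 0.104, and DESeq2 gave an adjusted p of 0.0304 with a change under the fold limit. In IMQ+XYF the gene measured 429, 564 and 470 CPM. Gm42674, a gene model on the same strand, shares 302 exon bases with S100a4, and 47.4% of the 50-base stretches of S100a4 occur in it. Gm42674 was listed at 0 in all 9 libraries.

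S100a11 (ENSMUSG00000027907, from 93520488 to 93526287, plus strand), an annexin A1 partner of many cell types, measured 215, 249 and 243 CPM in VAS+H2O and 277, 320 and 397 CPM in IMQ+H2O. The groups did not overlap. Its log2 fold change reached 0.49, SE 0.19 (edgeR unadjusted p 0.0301, adjusted p 0.192), and the gene was not called. Of its 50-base stretches, 41.1% occur in other gene models, of which Gm12854 and Gm7665 had counts (4901 and 4299 over the 9 libraries), so how reads were divided between them is uncertain.

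The other 4 genes overlapped between VAS+H2O and IMQ+H2O. S100a6, known as calcyclin, measured 214 to 240 CPM in VAS+H2O and 394, 224 and 240 CPM in IMQ+H2O, where replicate 1 alone stood high. S100a10, the partner of annexin A2, ranged from 186 to 248 CPM in VAS+H2O and from 196 to 229 in IMQ+H2O, and its log2 fold change was −0.046 with a 95% interval of −0.39 to 0.30. Of the epithelial S100 genes, S100a14 ranged from 45.9 to 77.6 CPM in VAS+H2O and 42.4 to 57.5 in IMQ+H2O, and S100a16 from 45.5 to 105 and 78.8 to 117. The log2 fold changes of S100a6, S100a14 and S100a16 were 0.33, −0.41 and 0.40, and all their intervals spanned 0.

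**Figure D4:**
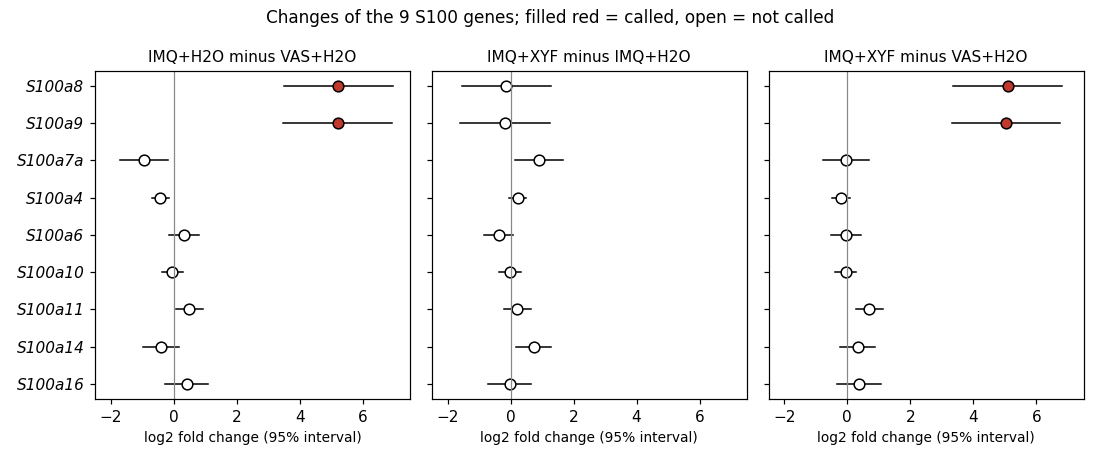
log2 fold change of the 9 genes (points) with the 95% interval (lines) in the 3 comparisons, edgeR fit over all 9 libraries. Filled red points are called and open points are not, so S100a8 and S100a9 are filled in the 2 comparisons with VAS+H2O and no point is filled for IMQ+XYF minus IMQ+H2O.

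XYF under imiquimod was examined by setting IMQ+XYF against IMQ+H2O. None of the 9 genes was called, against 0.00892% of all genes (2 of 22430) by edgeR, and DESeq2 called none of the 9, against 1.14% of genes. At an unadjusted p under 0.05 edgeR had 2 of the 9, S100a7a and S100a14, both higher in IMQ+XYF, against 11.7% of all genes. These 2 were also those whose libraries did not overlap between the groups, against 18.0% of all genes. The median log2 fold change of the 9 was −0.011, beside 0.0054 over all genes.

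S100a8 measured 102, 61.7 and 182 CPM in IMQ+XYF replicates 1, 2 and 3, a mean of 115 ± 61.2 beside 126 ± 87.9 in IMQ+H2O (SD, n = 3). S100a9 measured 139, 80.6 and 228 CPM, a mean of 149 ± 74.2 beside 168 ± 115. The libraries of both groups were interleaved, and each group held 1 library well above its others. The log2 fold change was −0.13 for S100a8 with a 95% interval of −1.56 to 1.29, and −0.17 for S100a9 with an interval of −1.61 to 1.26 (edgeR adjusted p 0.947 and 0.932). Changes within those bounds are compatible with these libraries. The bounds are not limits of detection, since a call also needed an adjusted p over all genes tested. Without IMQ+H2O replicate 3 the values were 0.63 and 0.58, and without IMQ+XYF replicate 2 they were 0.19 and 0.15, so their sign rested on single libraries.

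S100a14 (ENSMUSG00000042306, from 90526856 to 90528837, plus strand) measured 103, 60.3 and 73.3 CPM in IMQ+XYF beside 42.5, 57.5 and 42.4 in IMQ+H2O. Every IMQ+XYF library was higher, by 0.73 on the log2 scale (95% interval 0.17 to 1.29; edgeR unadjusted p 0.0163, adjusted p 0.377). S100a7a was 0.90 higher on the log2 scale with an interval of 0.14 to 1.67 (edgeR unadjusted p 0.026, adjusted p 0.385). Neither passed the test.

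Keratinocyte markers stood beside S100a14. None of the 15 was called in this comparison by edgeR, and 11 were higher at an unadjusted p under 0.05 (11.7% of all genes had such a p in either direction). DESeq2 called 3, against 1.14% of genes, and the median log2 fold change of the 15 was 1.38. With imiquimod edgeR called 0 of the 15 and had 2 lower at an unadjusted p under 0.05, beside 20.9% of all genes in either direction. DESeq2 called 1, against 3.88% of genes, and the median of the 15 was −0.59. They summed to 3164 to 4786 CPM in IMQ+H2O and 5222 to 19137 in IMQ+XYF. Krt14, a keratin of the basal epidermis, measured 812 ± 125 CPM in IMQ+H2O and 2115 ± 1165 in IMQ+XYF (SD, n = 3, edgeR adjusted p 0.364). The library with the most S100a14, IMQ+XYF replicate 1, was the one with the highest keratinocyte sum. The part of epidermal RNA in the S100a14 level was not tested.

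The libraries of the other 5 members overlapped between IMQ+XYF and IMQ+H2O. S100a4 had a log2 fold change of 0.23 (95% interval −0.045 to 0.50), S100a6 of −0.38 (−0.86 to 0.092) and S100a11 of 0.21 (−0.22 to 0.64). S100a10 had −0.011 (−0.36 to 0.33) and S100a16 −0.032 (−0.72 to 0.65). Changes within these intervals are compatible with these libraries.

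IMQ+XYF was last set against VAS+H2O, to see whether the treated group still differed from the control. It shares the VAS+H2O libraries with the first comparison and the IMQ+XYF libraries with the second, so its results are not independent of theirs. S100a8 and S100a9 were called higher, 2 of the 9 against 1.20% of all genes, and DESeq2 called the same 2, against 3.46% of genes. The libraries did not overlap for 3 of the 9, all higher in IMQ+XYF, against 22.1% of all genes. An unadjusted p under 0.05 was seen for these 3, against 18.3% of all genes. The median log2 fold change of the 9 was 0.32, beside −0.024 over all genes.

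S100a8 was 34.1-fold higher than in VAS+H2O, or 5.09 on the log2 scale with a 95% interval of 3.37 to 6.81 (edgeR adjusted p 0.0239). S100a9 was 32.7-fold higher, or 5.03 on the log2 scale with an interval of 3.31 to 6.75 (edgeR adjusted p 0.0245). Neither was called without VAS+H2O replicate 2 or 3 or IMQ+XYF replicate 1 or 3, and only S100a9 was called without VAS+H2O replicate 1. Over all genes edgeR called 12, 24, 25, 38 and 115 in those fits, in that order, beside 270 with all libraries. Over the 9 fits that each left out 1 library, the log2 fold change of S100a8 ran from 4.60 to 5.73, highest without VAS+H2O replicate 2, and that of S100a9 from 4.59 to 5.63. Neither was called in a fit of these 2 groups alone, with log2 fold changes of 5.11 and 5.05, where 33 of all genes were called. S100a11 was the third gene without overlap, at 455, 286 and 407 CPM in IMQ+XYF. Its log2 fold change was 0.70 with an interval of 0.27 to 1.13 (edgeR adjusted p 0.0986, DESeq2 adjusted p 0.015 with a change under the fold limit).

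Per kilobase of exon, the order of the 9 genes differed between the groups. RPKM here is TMM-scaled CPM divided by the exon length of the gene in kilobases. In VAS+H2O the order was S100a4 at 961, S100a11 at 461, S100a10 at 185, S100a6 at 166, S100a16 at 43.6, S100a14 at 36.4, S100a9 at 8.80, S100a8 at 4.92 and S100a7a at 1.23 RPKM. Libraries of neighbours in that order overlapped for S100a10 with S100a6, S100a16 with S100a14 and S100a9 with S100a8. In IMQ+H2O, S100a4 at 712 and S100a11 at 648 RPKM still led, with overlapping libraries, and S100a9 at 322 RPKM came next. S100a8 stood at rank 5 with 182 RPKM. There the libraries of S100a9 overlapped those of S100a11 and S100a6, and the libraries of S100a8 overlapped those of S100a6 and S100a10. In IMQ+XYF the first 3 genes were the same, at 835, 749 and 286 RPKM, and S100a8 again had rank 5 at 166. In that group S100a4 overlapped S100a11, S100a9 overlapped S100a10, and S100a8 overlapped S100a10 and S100a6. S100a7a was last in every group.

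Other S100 genes of the table were measured for comparison, of which 5 passed the filter. S100a3 (ENSMUSG00000001021), a protein of the hair cuticle, lies among the members, between S100a16 and S100a4. It measured 8.22, 12.6 and 31.0 CPM in VAS+H2O and 0.654, 1.14 and 0.507 CPM in IMQ+H2O, with no overlap. It fell by 4.49 on the log2 scale (SE 0.59, edgeR adjusted p 0.0187) and was also lower in IMQ+XYF, at 0.471 to 1.03 CPM (log2 fold change against VAS+H2O −4.46, edgeR adjusted p 0.0175). Along the cluster, S100a3 and the S100a8 and S100a9 pair changed in opposite directions, and S100a3 begins 108 kb before S100a8. S100a4, the member next to S100a3, was not called.

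**Figure D5:**
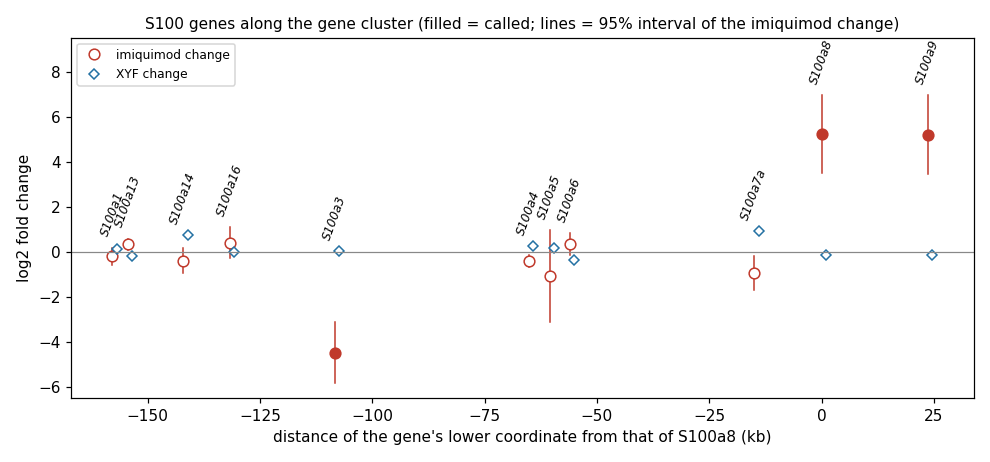
log2 fold change against the distance of each gene from S100a8 in kb, for the tested S100 genes of the cluster; S100a10 and S100a11 lie 2852 kb or more away and are left out. Circles are the imiquimod change with its 95% interval (filled where called) and diamonds the XYF change (none called), so the filled circles are S100a3 below 0 and S100a8 and S100a9 above it.

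S100b (ENSMUSG00000033208), a gene of Schwann cells and melanocytes on chromosome 10, measured 151, 74.3 and 103 CPM in VAS+H2O, 49.6, 25.5 and 38.1 in IMQ+H2O and 55.7, 154 and 82.5 in IMQ+XYF. The IMQ+H2O libraries lay below those of both other groups. By edgeR neither change was called (imiquimod −1.54, adjusted p 0.0968; XYF 1.37, adjusted p 0.364), whereas DESeq2 called both, with adjusted p-values of 0.0063 and 0.044. S100a13 had a log2 fold change by imiquimod of 0.33 (edgeR adjusted p 0.138), S100a1 of −0.21 (adjusted p 0.509) and S100a5 of −1.09 (adjusted p 0.521). None of S100a1, S100a5 and S100a13 was called in any of the 3 comparisons by edgeR or DESeq2, which gave S100a5 no adjusted p in those with IMQ+XYF. S100g, S100z and S100a2 had at most 6 counts in a library and were not tested.

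Larger relatives that carry an S100 domain, the fused-type S100 genes, are proteins of the cornified layer and the hair follicle. All 6 tested were lower with imiquimod by sign, with a median log2 fold change of −1.58. Of these, edgeR called 1 and DESeq2 2, against 0.994% and 3.88% of genes. An unadjusted p under 0.05 was seen by edgeR for 3, against 20.9% of all genes. The gene called by edgeR was Tchhl1, which fell from 1.80 ± 0.162 to 0.023 ± 0.040 CPM (SD, n = 3, edgeR adjusted p 0.0314). Tchh, or trichohyalin of the hair root sheath, measured 97.3 ± 60.7 and 8.36 ± 6.62 CPM (SD, n = 3). This gave −3.54 on the log2 scale with imiquimod (edgeR adjusted p 0.0515, DESeq2 adjusted p 1.0e-06 and called) and −4.03 in IMQ+XYF against VAS+H2O. In the latter comparison edgeR called Tchh (adjusted p 0.0370) and Tchhl1 (adjusted p 0.0288) lower, 2 of the 6 against 1.20% of all genes. Rptn had −1.35 with imiquimod (edgeR adjusted p 0.149). With XYF 0 of the 6 were called, with a median of 0.75, 0 at an unadjusted p under 0.05 by edgeR and 0 calls by DESeq2.

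Receptors of S100 proteins followed next. Of 8 tested, 0 were called with imiquimod by edgeR, against 0.994% of all genes, and DESeq2 called 1, against 3.88% of genes. By edgeR 3 were higher at an unadjusted p under 0.05 (20.9% of all genes had such a p in either direction). Mcam measured 76.8 ± 23.7 CPM in VAS+H2O and 153 ± 10.2 in IMQ+H2O (SD, n = 3, edgeR adjusted p 0.114, DESeq2 adjusted p 0.0182). Cd14, the co-receptor of TLR4, measured 17.8 ± 11.1 and 45.0 ± 18.7 CPM (SD, n = 3, edgeR adjusted p 0.17). The scavenger receptor Cd36 measured 153 ± 43.9 and 234 ± 15.5 CPM (SD, n = 3, edgeR adjusted p 0.134).

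In IMQ+XYF, Cd36 measured 161, 139 and 151 CPM, below all 3 IMQ+H2O libraries at 251, 228 and 222. The log2 fold change was −0.63 (edgeR unadjusted p 0.0096, adjusted p 0.364). It was the only one of the 8 at an unadjusted p under 0.05 by edgeR with XYF, beside 11.7% of all genes, and DESeq2 called 0. Against VAS+H2O, 0 of the 8 receptors were called by either tool or had such a p by edgeR.

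Partners that S100 proteins bind inside cells gave 0 calls of 8 in each of the 3 comparisons, by edgeR and by DESeq2. Over all genes the called shares were 0.994%, 0.00892% and 1.20% by edgeR and 3.88%, 1.14% and 3.46% by DESeq2. Median log2 fold changes of the 8 were −0.27, 0.097 and −0.015. With imiquimod 2 of the 8 had an unadjusted p under 0.05 by edgeR, against 20.9% of all genes in either direction. They were Myh9, a non-muscle myosin, at 0.44, and Cacybp, the calcyclin-binding protein, at 0.34 on the log2 scale (edgeR adjusted p 0.232 and 0.13). Anxa2, which binds S100a10, was at 722 ± 34.3 CPM in IMQ+H2O and 975 ± 168 in IMQ+XYF (SD, n = 3, edgeR adjusted p 0.371). In IMQ+XYF against VAS+H2O, Cacybp had 0.49 and Ahnak, a scaffold of the annexin A2 complex, −0.45 (edgeR adjusted p 0.0547 and 0.187).

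The remaining lists are given for completeness of the cell types. Of 10 fibroblast markers, 0 were called in any of the 3 comparisons by either tool, with 3, 0 and 2 lower at an unadjusted p under 0.05 by edgeR. Over all genes the shares with such a p, in either direction, were 20.9%, 11.7% and 18.3%. With XYF, 0 of 13 neutrophil markers and 0 of 12 monocyte and macrophage markers were called by either tool, with medians of −0.55 and −0.57. At an unadjusted p under 0.05 edgeR had 2 and 3 of them lower, beside the 11.7% of all genes. In IMQ+XYF against VAS+H2O, 4 of 13 neutrophil markers were called higher by edgeR and 8 by DESeq2 (median 2.91), against 1.20% and 3.46% of genes. Csf3r was among them (log2 fold change 2.91, edgeR adjusted p 0.0299). In that comparison 0 of 15 keratinocyte and 0 of 12 monocyte and macrophage markers were called by edgeR. At an unadjusted p under 0.05 edgeR had 3 higher and 1 lower in each of these 2 lists, beside the 18.3% of all genes. DESeq2 called 2 keratinocyte markers, 1 higher and 1 lower, and 1 monocyte and macrophage marker.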

How the data were processed

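RNA was sequenced from ear dermis, 3 libraries per group. The deposited table holds whole-number read counts per Ensembl gene, which the authors made without normalization. The study's methods name STAR with GRCm38, StringTie and DESeq2, and the submitters' processing notes STAR 2.5, FastQC, Cuffnorm and DESeq 1.22.1. The counting tool and its treatment of strand and of reads with several alignments are not given in the sources used here. The labels call the libraries strand-specific and the methods name an unstranded kit.

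Counts were tested with edgeR 4.0.16 in R 4.3.3: filterByExpr, TMM, and 1 quasi-likelihood fit of all 9 libraries with a coefficient per group (common biological coefficient of variation 0.296). Limits were an adjusted p of 0.05 and a log2 fold change of 1 in size, those of the study's methods. The SE was taken from the log2 fold change and its F statistic, and 95% intervals use the fit's degrees of freedom. The fit was tested on simulated data. The method was also run with DESeq2 1.42.0, other scaling, no filter, fewer groups, the replicate number as a block, and each library left out.

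Depth sets a floor of 3 counts, 0.0373 to 0.103 CPM per library, which covers counting error only. Replicates differed by more than counting error. The 9 genes and all gene lists were chosen with earlier results of these data known. Named were the 9 genes, tested S100 relatives, and up to 5 receptors, partners and fused-type genes with an unadjusted p under 0.05. Of 12 preset cell markers, Krt14, Ly6g, Csf3r, Cxcr2, Adgre1 and Csf1r are given. Krt5, Krt1, Krt10, Col1a1, Pdgfra and Dpt were also preset but are not given by name in the results. Also named were the 3 genes most like a member by r of log2 CPM (prior count 2), of which those of S100a8 and S100a9 are given. Il1r2 and Hdc were named after their values were seen, and so were the uncalled change of Tchh and the untested S100 genes. Coordinates are from GENCODE vM21.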

Additional observations from a re-analysis of the deposited data

How the results depend on the processing

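The calls of S100a8 and S100a9 with imiquimod held in all 6 alternatives that kept the libraries of that comparison, and when IMQ+H2O replicate 1 or any IMQ+XYF library was left out. Leaving out 1 library gave between 0 and 2 called genes of the 9 with imiquimod and between 0 and 2 in IMQ+XYF against VAS+H2O. XYF gave 0 called genes in all 15 alternatives. In IMQ+XYF against VAS+H2O the fit of 2 groups gave 0, and the fit with the replicate number as a block 0. The fits that left out a library or a group use fewer libraries, and the block fit keeps all 9. The cause of these losses was not tested. Over all genes, the imiquimod calls numbered 945 by DESeq2, 496 with the compared groups only and 86 with the block, beside 223, and the XYF calls 223 by DESeq2, beside 2. In IMQ+XYF against VAS+H2O they numbered 701, 33 and 54, beside 270. The replicate numbers did not pair the libraries, since same-numbered libraries had deviations from their group means that correlated between −0.18 and 0.12. With the replicate block S100a8 had an XYF value of 0.0071.

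Small values changed sign. Without TMM scaling S100a10 had 0.010 with imiquimod, and against VAS+H2O in IMQ+XYF S100a7a had 0.032, S100a6 0.013 and S100a10 0.0096. Without a filter S100a10 had 0.017 with XYF. Leaving out 1 library, S100a10 ranged from −0.17 to 0.031 with imiquimod, from −0.11 to 0.13 with XYF and from −0.17 to 0.11 in IMQ+XYF against VAS+H2O. With XYF, S100a8 ranged from −0.62 to 0.63, S100a9 from −0.61 to 0.58 and S100a16 from −0.14 to 0.17. In IMQ+XYF against VAS+H2O, S100a6 ranged from −0.11 to 0.10 and S100a7a from −0.39 to 0.25. None of these values passed a test. With 3 libraries per group, the 95% intervals of the XYF change of S100a8 and S100a9 were wide, and depth limits S100a7a, with 23 to 171 counts per library.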
